A study of Mus musculus with 4 samples.

Results

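The annotation placed 20013 protein-coding symbols on mouse chromosomes 1 to 19. Of these, 618 (3.09%) were intronless and, by name, lay outside the large intronless families. A symbol was counted when each of its rows had 1 exon and at least 1 row had a coding part, and when its name did not start with the prefix of an olfactory, vomeronasal or bitter taste receptor, a keratin-associated protein, a protocadherin, a histone, a defensin, a heat shock protein or a Zfp zinc finger gene. The other coding symbols were 18005 with introns and 1390 intronless genes of the families left out. The genes were chosen by exon number, coding part and name as the annotation gives them, so these are description here. Position inside other genes and promoter sequence were not part of the choice, while span is tied to the 1 exon and the range of families to the names left out.

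The annotation belongs to a CUT&Tag study of RNA polymerase I (Pol I), the enzyme that transcribes ribosomal DNA, and in CUT&Tag an antibody brings a transposase to chromatin. All 4 libraries came from C64 mouse embryonic stem cells and an antibody against Pol I, with 2 libraries from cells given 500 nM auxin for 6 h and 2 control libraries whose treatment is given as none. The labels name neither a degron-tagged protein nor separate cultures. Occupancy values and sequencing depth were not analysed here, so auxin and control are not compared and the stem cell label could not be checked against marker genes. The values below are fixed mm10 coordinates without replicate error, and no test was run on them.

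Most mammalian coding genes are interrupted by introns that the spliceosome removes. An intronless gene can arise when a spliced mRNA is copied back into the genome by LINE-1 reverse transcriptase, which leaves a retrogene without the introns and without the promoter of its parent. Others belong to old families with an undivided coding part, among them many G protein-coupled receptors (GPCRs) and developmental transcription factors. Transcripts of such genes need no splicing before export from the nucleus.

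Short stretches of sequence show what some intronless neighbours share. They come from RefSeq on GRCm38.p6 (mm10) and are written 5′ to 3′ on the strand of the gene, each 30 bases long. The first set ends 11 bases before the transcription start and was chosen to show how a TATAAA motif, in capitals, recurs in gene clusters and also occurs in 2 single genes. Gm11595 (chr11:99772924-99772953, minus strand) and Gm11569 (chr11:99798943-99798972, minus strand) stood in a cluster of 10 genes, and Gm11554 (chr11:99804457-99804486, minus strand) carried the same 30 bases as Gm11569. Gm10228 (chr16:89041483-89041512, minus strand) and 1110025L11Rik (chr16:89064013-89064042, minus strand) also had identical windows. Cebpa (chr7:35119253-35119282, plus strand) encodes a leucine zipper transcription factor of liver, fat and myeloid cells, and Adra2a (chr19:54045219-54045248, plus strand) encodes an adrenergic receptor.
Gm11595: tcagcagggTATAAAaggggacatgggcag
Gm11569: tcagcagggTATAAAaggggatggaggcag
Gm10228: actgagagaaTATAAAaggcctccactcag
1110025L11Rik: actgagagaaTATAAAaggcctccactcag
Cebpa: cccgaccctcTATAAAagcggtccccgcgc
Adra2a: catcctggggcTATAAAaccagtccagcgt

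The second set holds the first 30 coding bases, with the first codon in capitals, and shows how close neighbours within a family are. Ifna1 (chr4:88850087-88850116, plus strand), Ifna14 (chr4:88571769-88571798, minus strand), Ifna2 (chr4:88683750-88683779, minus strand) and Ifnb1 (chr4:88522745-88522774, minus strand) are type I interferons, the antiviral cytokines. Taar7b (chr10:23999939-23999968, plus strand) and Taar7e (chr10:24037614-24037643, plus strand) are trace amine-associated receptors of olfactory neurons. Fpr-rs4 (chr17:18021733-18021762, plus strand) belongs to the formyl peptide receptors. The coding part annotated for Cebpa (chr7:35119308-35119337, plus strand) began with CTG.
Ifna1: ATGgctaggctctgtgctttcctgatggtc
Ifna14: ATGgctaggctctgtgctttcctgatgacc
Ifna2: ATGgctagactctgtgctttcctcgtgatg
Ifnb1: ATGaacaacaggtggatcctccacgctgcg
Taar7b: ATGgctacagataatgacagttttccctgg
Taar7e: ATGgctacaggtgatgacagttttctctgg
Fpr-rs4: ATGgaagtcaacatttcaatgcctctgaat
Cebpa: CTGcgcgggcgcgagccagttggggcactg

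Among the 8 interferons with 30 coding bases inside the RefSeq promoter window (250 bases before to 50 after the start), the 28 pairs of genes had a median of 26 identical bases of 30 (range 9 to 30). For 4 formyl peptide receptors the median was 24 (22 to 26). Trace amine receptors differed more, with a median of 10 identical bases among 10 genes and a range of 6 to 29. Of 136 intronless genes whose coding start lay in the window, 134 began with ATG, the exceptions being Cebpa and Ppp2r3d.

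The intronless genes spanned far fewer bases than genes with introns, which follows in part from the choice of 1 exon, and their coding parts were also shorter at the median. Their locus span, from first to last transcribed base, had a median of 1681 bases (quartiles 1033 and 2779, range 231 to 8478), against 20342 bases for coding genes with introns. The coding part had a median of 946.5 bases (quartiles 593 and 1275), against 1326 bases in genes with introns. Intronless genes of the families left out were more uniform, with a median coding part of 939 bases and quartiles of 927 and 951.

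**Figure D1:**
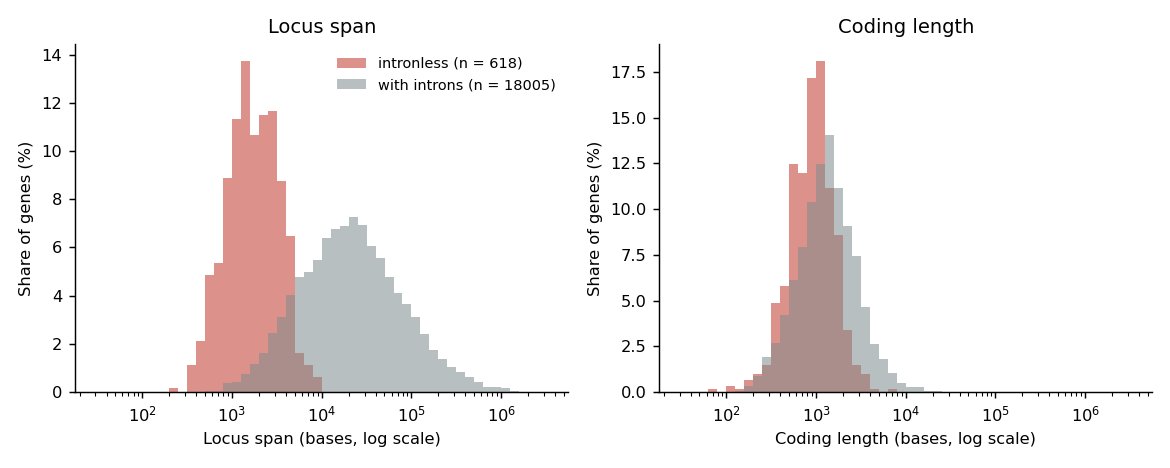
Locus span and coding length in bases (log axes) for the 618 intronless genes and for coding genes with introns. Span separates the intronless genes (median 1681 bases) from genes with introns (median 20342 bases), while the coding lengths overlap widely (medians 946.5 and 1326 bases).

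Of the 5 longest spans, 4 consisted mostly of 3′ UTR. Purb, which encodes a single-stranded DNA-binding protein, spanned 8478 bases with a 3′ UTR of 7313. Sox11, an SRY-box factor of developing neurons, spanned 8451 bases with a 3′ UTR of 6953. Paqr9, which encodes a progestin and adipoQ receptor family protein, spanned 8389 bases, of which 6936 were 3′ UTR. D830031N03Rik, the exception, spanned 8311 bases with 3348 coding and 3759 of 3′ UTR. Pigm, the first mannosyltransferase of GPI anchor synthesis, spanned 7569 bases with 6129 of 3′ UTR. Across the 618 genes the 3′ UTR exceeded the coding part in 188 (30.4%). The like share was not computed for genes with introns, so 30.4% is not set against a background. The median 3′ UTR was 455 bases, against 793 bases in genes with introns. The median 5′ UTR was 112 bases, against 142 in genes with introns.

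At the other end, 58 intronless genes (9.39%) had no UTR on either side, against 184 (1.02%) of the genes with introns and 1029 (74.0%) of the intronless families left out. In these the annotated transcript is the coding part alone. The shortest span was that of Sprr4, a small proline-rich protein of the epidermal cornified envelope, whose 231 bases were all coding. It was followed by Gm34650 (332 bases), Gm20594 (334), Gm29802 (353) and Rps27rt (374), a copy of a ribosomal protein gene.

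The longest coding parts reached several kilobases. Pkdrej, a polycystin-related protein of sperm, had 6381 coding bases, and Rimbp3, a protein of the spermatid manchette, had 4821. Magel2, a MAGE-family protein of the region imprinted in Prader-Willi syndrome, had 3855. Klhdc7b and Actl11 had 3792 and 3624 coding bases. In all, 9 genes had more than 1000 codons and 19 had fewer than 100. The shortest coding parts were annotated in Ppp2r3d (65 bases), Gm19774 and Gm20594 (114 each), Aym1 (138) and Gm34650 (159). Ppp2r3d was the exception among 618 in that its coding length was not a multiple of 3.

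Names of the Gm and Rik kinds, given to genes without an established function, made up 132 (21.4%) of the intronless genes. Their median span was 1022.5 bases and their median coding part 601.5, against 1913 and 1029 bases for the 486 others. Family lists and listed retrogene pairs covered 318 of the 618 genes. The remaining 300 were the 132 with Gm or Rik names and 168 others.

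Receptors formed a class of 66 genes with a median coding length of 1077 bases and a median span of 1724.5. The class includes lists added after the gene names had been seen. These gave 6 frizzled receptors, 6 receptors for peptides, bile acids and relaxins, and 2 vomeronasal receptors under older names. Of 34 receptors for amines, which include the adrenergic, dopamine, serotonin, histamine and muscarinic receptors, 8 were intronless. Among them were Adra2a, Adra2b, Adra2c and Chrm5, with coding parts of 1398, 1347, 1377 and 1599 bases. Htr1a, the autoreceptor of serotonin neurons, had 1266 coding bases in a span of 4441. Another 9 amine receptors, such as Drd1 and Htr1b, had an undivided coding part and an intron in the UTR, and 17 had a divided coding part. The intronless dopamine receptor was Drd5 (1437 coding bases), while Drd2, Drd3 and Drd4 had divided coding parts.

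Trace amine receptors were nearly all intronless. Of 15, 14 were intronless, with coding parts of 999 to 1077 bases, and 13 of these had no UTR. Taar2 had a divided coding part. Melanocortin receptors, which bind peptides cut from pro-opiomelanocortin, gave 3 of 5 (Mc1r, Mc3r and Mc4r), with 948, 972 and 999 coding bases, and Mc2r and Mc5r had an intron in the UTR. Mas-related receptors of sensory neurons and mast cells gave 6 of 18, and formyl peptide and complement receptors 4 of 9.

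Chemokine and nucleotide receptors mostly had a UTR intron alone. Of 22 chemokine receptors, 0 were intronless, 14 had an intron in the UTR alone and 8 had a divided coding part. Of 6 nucleotide receptors, 0 were intronless and 5 had a UTR intron alone. Among 65 numbered orphan GPCRs, 8 were intronless, including Gpr135 (1374 coding bases) and Gpr27 (1140), and 32 had a UTR intron alone. Outside the G protein-coupled families, Tlr12, a Toll-like receptor that recognises profilin of parasites, had 2721 coding bases. Frizzled receptors, which bind Wnt ligands, gave 6 of 10 (Fzd1, Fzd2, Fzd7, Fzd8, Fzd9 and Fzd10) with coding parts of 1713 to 2058 bases. The frizzled list was added after the names of the intronless genes had been seen.

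Transcription factors formed a class of 59 genes, of which 11 came from a list added after the gene names had been seen. Their spans were longer than those of the receptors, with a median of 2706 bases, and their median coding part was similar, 1080 bases. Their median 3′ UTR was 1064 bases, against 285 in the receptors. Sox factors, which bind DNA through an HMG box, gave 7 of 18. These were Sox1, Sox2, Sox4, Sox11, Sox12, Sox14 and Sox21. Sox2, a factor of pluripotent and neural stem cells, had 960 coding bases in a span of 2467, and Sox1, a factor of the early neural plate, had 1176 in a span of 4037. The other 11 Sox genes had a divided coding part, and 0 had a UTR intron alone.

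Forkhead factors gave 13 of 41, with coding parts of 867 to 1662 bases. Foxc1, a factor of the anterior eye and blood vessels, had 1662 coding bases, Foxc2, a factor of lymphatic vessels, had 1485, and Foxb2 and Foxd1 had 1287 and 1371. Among 14 POU factors, 4 were intronless. Pou3f1, Pou3f2 and Pou3f3, the neural class III factors, had 1350, 1338 and 1494 coding bases, and Pou5f2, a testis relative of the pluripotency factor Pou5f1, had 990. Of 43 basic helix-loop-helix factors, 11 were intronless, among them Ascl4 (435 coding bases), Ascl5, Bhlha9 and Atoh1 (1056), a factor of hair cells and cerebellar granule neurons. A further 15, including Neurod1, had a UTR intron alone.

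Among leucine zipper factors, exon structure differed within and between subfamilies. All 3 Jun genes, Jun, Junb and Jund, were intronless with 1005, 1035 and 1026 coding bases. The large Maf factors Maf and Mafa were intronless, and the small Maf factors Maff, Mafg and Mafk, which lack a transactivation domain, had divided coding parts. Of 6 genes matched by a Cebp symbol, Cebpa, Cebpb and Cebpd were intronless with 1191, 891 and 807 coding bases. Cebpg had a UTR intron alone, and Cebpe and Cebpz had divided coding parts. Cebpz was counted by its symbol and is not a leucine zipper factor. Among 23 immediate early genes, which cells induce within minutes of a stimulus without new protein synthesis, 8 were intronless. They were Jun, Junb, Jund, Cebpb, Cebpd, Ier2, Ier5 and Ier5l, whereas Fos, Egr1 and 11 others had divided coding parts and Arc and Socs3 had a UTR intron alone.

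**Figure D2:**
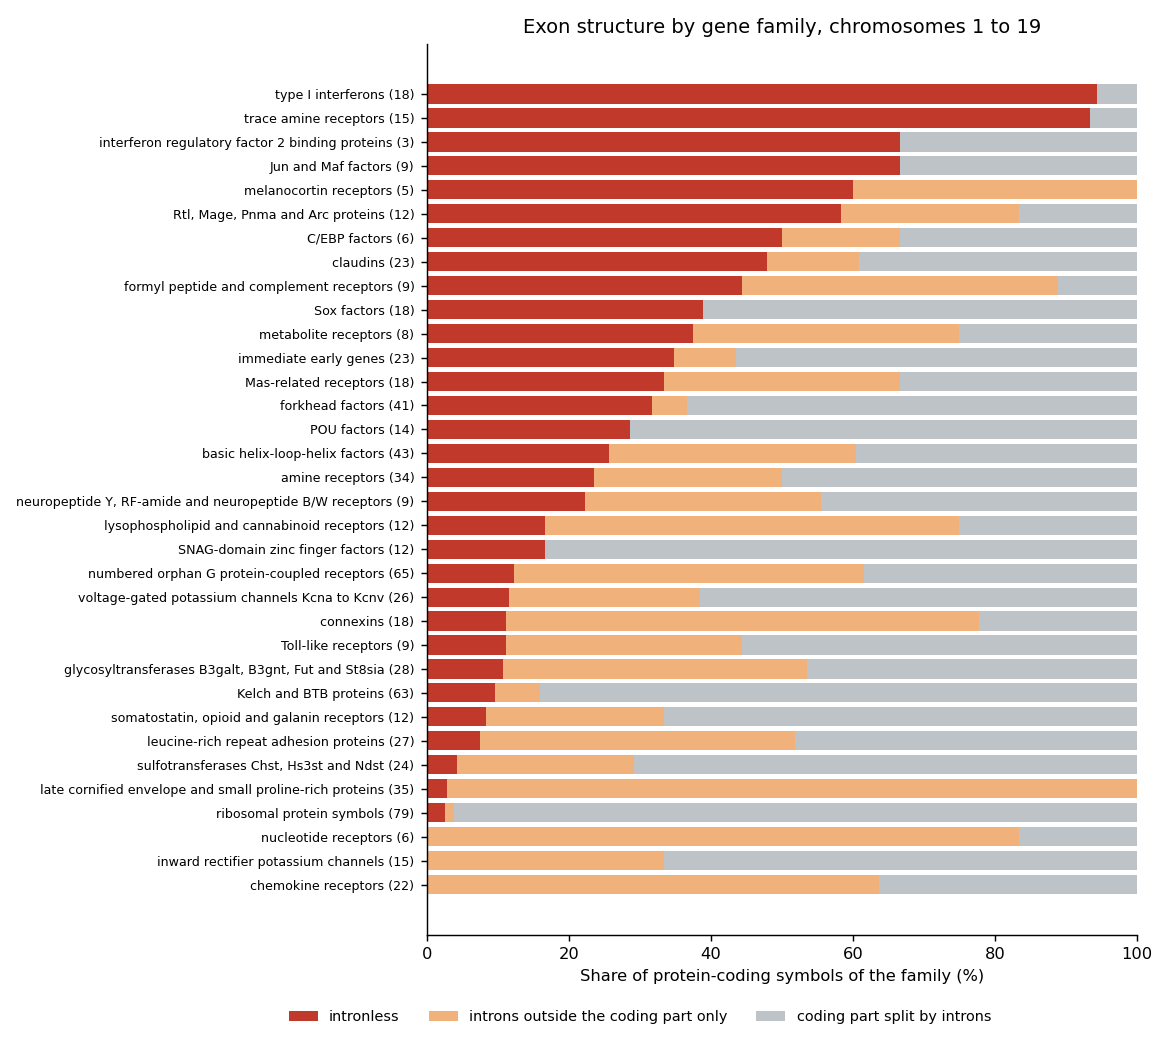
Share in percent of each family's coding genes that were intronless, had introns outside the coding part alone, or had a divided coding part. Trace amine receptors (14 of 15) and type I interferons (17 of 18) were mostly intronless, while 14 of 22 chemokine receptors had a UTR intron alone.

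Type I interferons signal through the shared receptor of Ifnar1 and Ifnar2. Of 18 genes, 17 were intronless, with coding parts of 549 to 579 bases and a median span of 644 bases, and Ifnk had a divided coding part. Ifna1 had 570 coding bases and no UTR. Ifna11 had 573 coding bases with 40 and 34 bases of 5′ and 3′ UTR, and Ifnb1 had 549 with a 3′ UTR of 201. In total 7 of the 17 had no UTR, as annotated.

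Channel and junction genes gave smaller shares apart from the claudins. Claudins, which seal tight junctions, gave 11 of 23, with coding parts of 633 to 891 bases, among them Cldn3 (660), Cldn4 (633), Cldn5 (657) and Cldn17 (675). Voltage-gated potassium channels gave 3 of 26, Kcna3 (1587), Kcna5 (1809) and Kcnf1 (1518). Connexins, which form gap junctions, gave 2 of 18, and 12 had a UTR intron alone. Of 15 inward rectifier potassium channels, 0 were intronless and 5 had a UTR intron alone. Late cornified envelope and small proline-rich proteins showed the same form, with Sprr4 intronless and the other 34 of 35 carrying an intron outside the coding part.

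The remaining lists varied in their share of intronless genes. Among receptors, neuropeptide Y, RF-amide and neuropeptide B and W receptors gave 2 of 9 (Npbwr1 and Prlhr), somatostatin, opioid and galanin receptors 1 of 12 (Sstr4), lysophospholipid and cannabinoid receptors 2 of 12 (Lpar6 and S1pr4), metabolite receptors 3 of 8 (Ffar1, Hcar1 and Hcar2) and Toll-like receptors 1 of 9. Among DNA-binding and chromatin proteins, SNAG-domain zinc finger factors gave 2 of 12 (Insm1 and Insm2) and interferon regulatory factor 2 binding proteins 2 of 3 (Irf2bp1 and Irf2bpl). Leucine-rich repeat adhesion proteins gave 2 of 27, glycosyltransferases 3 of 28, sulfotransferases 1 of 24, and Kelch and BTB proteins, many of them adaptors of ubiquitin ligases, 6 of 63. Ribosomal protein symbols gave 2 of 79, Rpl10l and Rpl32l. Genes of the Rtl, Mage, Pnma and Arc group, several of which derive from retrotransposons, gave 7 of 12, among them Mageb3, Magel2, Ndn and Nsmce3.

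Retrogenes were described through pairs of an intronless gene and its multi-exon parent or nearest relative by name. A first list of 50 known or proposed retrogenes gave 34 intronless genes of 48 with a coding row, and 45 pairs were added after the gene names had been seen. No sequences of the pairs were aligned. In 77 of the 79 pairs the partner had introns in its coding part, and these 77 used 70 different partners, Actb being the partner of 4. Nap1l5 and Rnf113a2 were paired with Nap1l2 and Rnf113a1, whose own coding parts lay in 1 exon.

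Many retrogenes had a coding length close to that of their partner. Coding length was the same to the base in 22 of 77 pairs and within 5% in 51. It was shorter in 32 retrogenes and longer in 23. The median span was 1613 bases in the retrogenes and 13316 in the partners, which had a median of 8 exons. The partner span exceeded that of the retrogene by a median factor of 7.57, which follows largely from choosing partners with introns. The pairs of Rnf113a2 and Nap1l5 were left out of this count for a partner of 1 exon. Rnf113a2 spanned 1379 bases and Rnf113a1 1246, while Nap1l5 spanned 1894 bases and Nap1l2 2478.

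Pgk2, the phosphoglycerate kinase of sperm, and its X-linked partner Pgk1 both had 1254 coding bases, in spans of 1592 and 16600 bases. Cetn1, a centrin of sperm, and Cetn2 both had 519, and Rpl10l, a ribosomal protein of male germ cells, and Rpl10 both had 645. Prps1l1 and Prps1 both had 957, and Rasl2-9 and Ran, a GTPase of nuclear transport, both had 651. Pdha2, the testis subunit of pyruvate dehydrogenase, had 1176 coding bases and Pdha1 had 1173. Oxct2a and Oxct2b, the ketone-using transferases of spermatids, had 1563 coding bases each, as had Oxct1, which spanned 128917 bases. Among pairs that differed most, Atxn7l3b had 27.6% of the coding length of Atxn7l3, Dnajb3 had 65.1% of that of Dnajb6, and Zrsr1 had 79.2% of that of Zrsr2.

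The partner lay on the X chromosome for 23 of the 79 retrogenes, while the X held 4.30% of coding symbols over all assembled chromosomes (902 of 20992). The share was 16 of 34 in the first list, which draws on textbook cases of retrogenes from the X, and 7 of 45 in the pairs added later. The list was therefore not chosen independently of the chromosome of the partner.

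**Figure D3:**
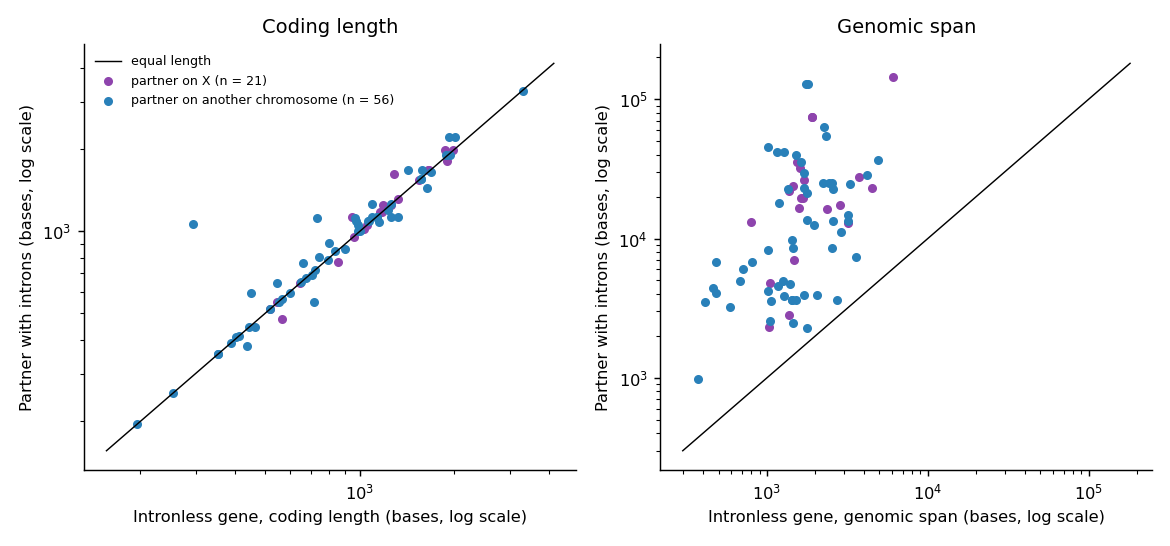
Coding length and locus span in bases (log axes) of 77 intronless retrogenes against those of their partners with introns, with X-linked partners marked. Many coding lengths lie near the line of equality (22 of 77 equal), and the spans lie on the side of the partner, as the choice of partners with introns largely fixes.

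Of the 618 intronless genes, 105 (17.0%) lay whole inside an intron of another gene, against 210 (1.17%) of the genes with introns and 29 (2.09%) of the families left out. Over all 20013 coding symbols the share was 1.72%. Among the 4556 genes with introns no longer than the longest intronless gene the share was 2.44%. The host intron had a median length of 45384 bases (range 2476 to 996015), and in 46 of 105 cases it was the first intron of the host. A host on the same strand was found for 55 genes and hosts on the opposite strand alone for 50. The host was a coding gene for 93. In 103 of 105 the intronless gene overlapped no exon of any transcript of the host.

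Tspear, a gene of ear and tooth development, held 18 of the 105, with 15 in its first intron of 142569 bases and 3 in its second of 34956. All 18 had Gm names, and 1 of them, Gm10272, has the RefSeq synonym Krtap12-4, a keratin-associated protein. Without these 18 genes 87 of 600 (14.5%) were nested. Genes with Gm or Rik names were nested in 40 of 132 cases (30.3%), and genes with other names in 65 of 486 (13.4%).

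The longest host introns were many times the length of the genes within them. 1700071K01Rik lay in an Asic2 intron of 996015 bases, Asic2 being an acid-sensing ion channel. Slc25a2, a mitochondrial ornithine carrier, lay in an intron of Gm38667 of 848742 bases on the opposite strand. Gm15881 lay in a Galntl6 intron of 375322 bases, and Cstf2t, a testis form of a polyadenylation factor, in a Prkg1 intron of 309123 bases. Gm20172 lay in Adgrb3 (167888 bases), Pou5f2 in Fam172a (157040 bases), and Gm5415 and Gm9839 in the same Khdrbs2 intron (146405 bases).

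Listed retrogenes were nested in 30 of 79 cases (38.0%), against 75 of the 539 other intronless genes (13.9%). The share was 14 of 34 (41.2%) in the first list and 16 of 45 (35.6%) in the added pairs. The retrogene lay on the strand of its host in 18 and on the opposite strand in 12. Ddi1 lay in Pdgfd, Gk2 in the non-coding gene 4930467D21Rik, Hmgb4 in Csmd2, Chmp1b in Gnal, Ldhal6b in Tmem242, Uchl4 in Map2k1 and Rnf113a2 in Bbof1. Dnajb3 lay in the first introns of 8 Ugt1a genes, which share their downstream exons. The paralogs Oxct2a and Oxct2b lay in the third introns of the paralogs Bmp8a and Bmp8b, with intron lengths of 7504 and 6591 bases.

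Of the other classes with at least 5 genes, 5 of 59 transcription factors, 1 of 66 receptors and 1 of 16 channel and junction genes were nested. So were 3 of 17 genes of families grouped by name as spermatid proteins and 2 of 24 genes of mixed small families. In the Rtl, Mage, Pnma and Arc group 3 of 7 genes were nested. Nested genes numbered 0 among the 17 interferons, 8 early response genes, 7 secreted ribonucleases and 11 Kelch, BTB and POZ domain genes. Sox2 lay in an intron of 14538 bases of Sox2ot and Sox1 in an intron of 38850 bases of Sox1ot, the long non-coding transcripts named for them, on the same strand. Lpar6, a receptor for lysophosphatidic acid, lay in intron 17 of the tumour suppressor Rb1, on the opposite strand, and is named here after its position was seen. Slc18a3, the vesicular acetylcholine transporter, lay in the first intron of Chat, which makes acetylcholine, and Omp, the olfactory marker protein, in Capn5. These and the Sox genes were also singled out after their positions were seen.

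**Figure D4:**
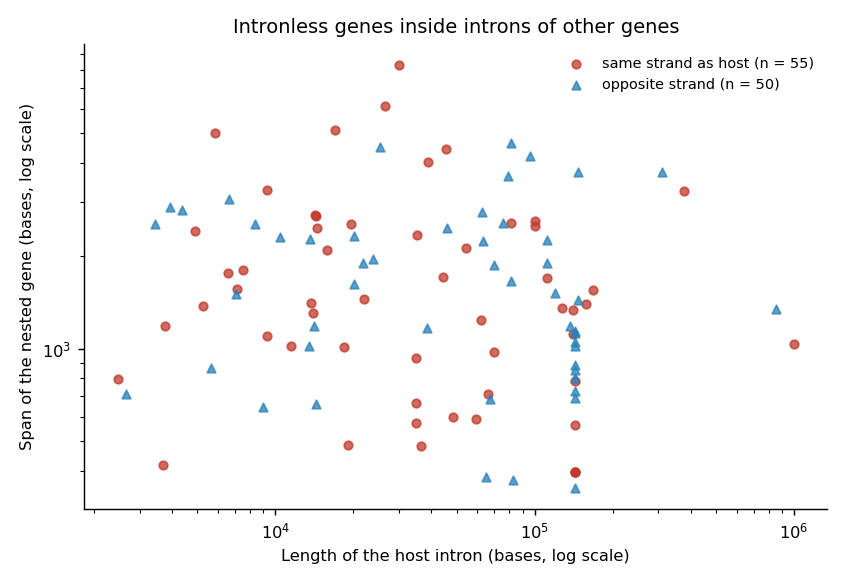
Length of the host intron and span of the nested gene in bases (log axes) for the 105 nested intronless genes. Genes on the strand of the host and on the opposite strand are marked apart. Host introns had a median length of 45384 bases (range 2476 to 996015), and the nested genes a median span of 1445 bases.

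Genes known to be imprinted, which are expressed from the copy of 1 parent, appeared in the nested set. Mcts2 lay in intron 4 of H13, the shortest host intron found (2476 bases), on the same strand, and had 546 coding bases, against 549 in its X-linked partner Mcts1. Nap1l5 lay in a Herc3 intron of 21787 bases, and Zrsr1 in a Commd1 intron of 25386 bases, both on the opposite strand. Zrsr1 overlapped an exon of another Commd1 transcript. Ndn, Magel2 and Mkrn3 lay in the same intron of 81207 bases of the non-coding gene Gm32061. Peg12, their neighbour, had 852 coding bases and was not nested.

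Sharing at least 1 base with another symbol on either strand was about as common in intronless genes, 134 (21.7%), as in genes with introns, 3730 (20.7%), and over all coding symbols the share was 19.5%. Of the 134, 105 were the nested genes and 29 overlapped in another way. Exons were shared by 31.

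Intronless genes stood in 41 clusters, defined as neighbours at most 50 kb apart, which held 166 genes (26.9%). The like share was not computed for other coding genes, so clustering cannot be called particular to intronless genes. Of the clusters, 27 were pairs and 6 had at least 5 genes. The largest, on chromosome 4 at positions 88522025 to 88880201, held 32 genes, of which 17 were type I interferons, 14 had Gm names and the last was Klhl9, an adaptor of a ubiquitin ligase with 1854 coding bases. Of the 14 Gm genes, 13 had 549 coding bases and the other had 537. The second, on chromosome 10 at 77689957 to 77862638, was the group of 18 inside Tspear, with coding parts of 315 to 834 bases. The third, on chromosome 10 at 23920406 to 24109534, held the 14 trace amine receptors. A cluster of 10 Gm and Rik genes stood on chromosome 11 at 99771714 to 99915671, and 6 Gm genes with 870 to 885 coding bases stood on chromosome 10 at 100335676 to 100382560. Chromosome 10 had the highest share of intronless genes among its coding symbols, 6.25% (61 of 976), and chromosome 17 the lowest, 2.04%.

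RefSeq promoters were matched for 490 of the 618 genes, and in each the start equalled that of the annotation. The hexamer TATAAA, the core of the TATA box bound by TBP, occurred on either strand of the 300-base window in 103 (21.0%), against 10.4% of genes with introns and 44.8% of the families left out. Over all 18595 promoters of chromosomes 1 to 19 the share was 13.0%. A match is a description of letters and does not show a working TATA box. The sense strand held it in 82 and the opposite strand in 32, some promoters counting under both, and no other motif was searched. On the sense strand 40 to 20 bases before the start, where TATA boxes lie, the hexamer was found in 30 (6.12%), against 2.66% of genes with introns, and in 2.73% of all promoters.

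Most of these 30 were cluster genes, 23 with Gm or Rik names. Among them, Gm10272 and 2310057N15Rik have the RefSeq synonyms Krtap12-4 and Krtap13-1, so both belong to a family left out by prefix alone. Whether other Gm or Rik genes belong to that family was not tested. In the chromosome 11 cluster shown above by Gm11595 and Gm11569, 9 of 10 promoters had the hexamer at this place, and within Tspear 5 of 14 did. Among listed retrogenes it was found in 0 of 60 promoters, among interferons in 0 of 16, among transcription factors in 1 of 43 (Cebpa) and among receptors in 1 of 50 (Adra2a).

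CpG content differed widely between the classes. The ratio of observed to expected CpG was at least 0.6 in 37.3% of intronless promoters, against 54.2% of promoters of genes with introns and 4.05% of those of the families left out. Over all 18595 promoters the share was 46.8%. Transcription factors reached 69.8%, listed retrogenes 43.3%, receptors 20%, and interferons 0 of 16. Median GC content was 53% in intronless promoters, against 58% in genes with introns and 35.7% in the families left out.

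**Figure D5:**
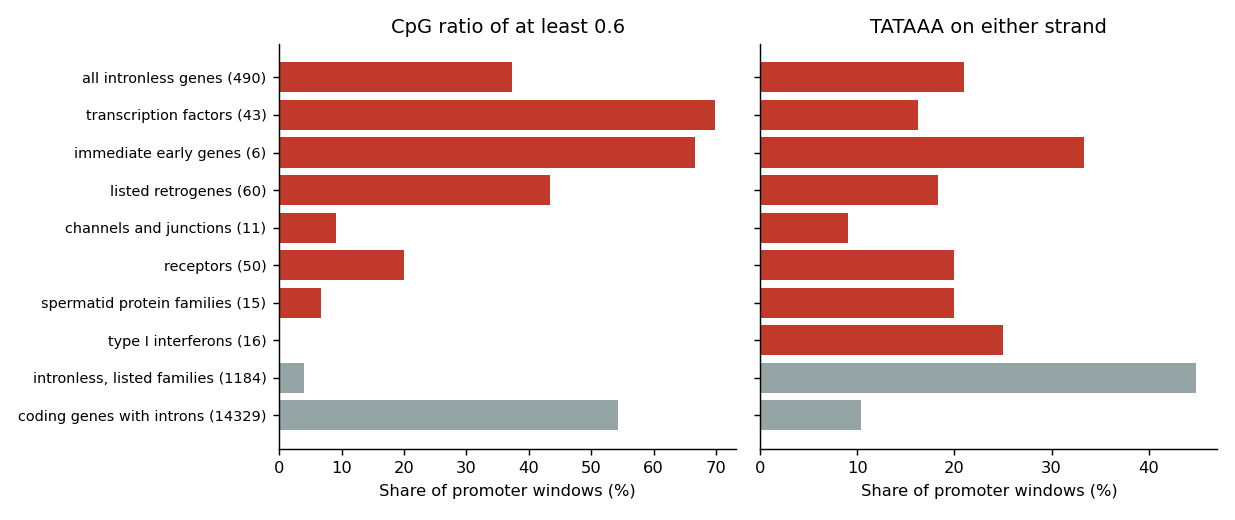
Share of promoters in percent with a CpG ratio of at least 0.6 and with TATAAA on either strand of the 300-base window, by group. Among the groups shown, transcription factors had the highest CpG share (69.8%), and the families left out the highest TATAAA share (44.8%).

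At the edge of the definition, 761 coding symbols outside the families left out had introns outside the coding part alone, more than the 618 counted. Another 42 symbols had a coding transcript of 1 exon beside a transcript with introns, of which 34 had at most 2 exons. Id1, Bdnf, Bcl2 and Tktl2 were among them. Inside the definition, 10 genes had a RefSeq synonym starting with a prefix left out, such as V1ra8, V1rd19 and H4f16. The match is by prefix alone and does not show family membership, as for Hsfy2 (Hspy2l) and Mkrn3 (Zfp127). Of the 618 genes, 23 also had rows outside chromosomes 1 to 19.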

How the data were processed

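A gene annotation in 12-column BED layout with 50727 rows, which belongs to the whole series, was analysed. The score column deposited by the authors was 0 in every row and holds no measurement. The other columns used hold positions and exon blocks, as the authors deposited them. The submitters' processing notes name mm10 as the build and list bedtools, Bowtie2, deepTools and FastQC. How the annotation was made is not given in the sources used here. No column holds a value per library, so depth is unknown and no interval, limit or test is given.

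Rows on chromosomes 1 to 19 were analysed in Python 3.11.15 with numpy 2.4.6 and pandas 2.3.3, and matplotlib 3.10.9 drew the figures. Rows of a symbol sharing a base were merged to a locus. Span is that of the longest locus, and coding length that of the longest coding row, with introns removed. A gene was nested when its locus lay whole in 1 intron of a row of another symbol. Families were matched by symbol (34 lists, with 17 added after the names were seen). Of the 618 genes, 617 matched a RefSeq symbol (GRCm38.p6). Promoters ran from 250 bases before to 50 after the start. The nesting and overlap routines were tested on simulated data, where 0 of 500 genes differed from an exhaustive comparison. The cluster routine was not tested in this way. The members and lists were chosen with earlier results of these data known. Named genes were the 5 extremes of span and of coding length in each direction, the first 4 of each family by symbol, imprinted genes, nested genes with the 10 longest host introns, nested retrogenes of the first list, and the 5 largest clusters. Other genes were named after their values were seen. Protein searches, protein identity of pairs and residue runs were planned and not run, since no protein sequences were used here. Some genes are not reported here. Alternatives are given at the end.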

Additional observations from a re-analysis of the deposited data

How the results depend on the processing

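The number of intronless genes was 618. It was 2008 with no family left out and 1379 with introns allowed outside the coding part, so the count depends on both limits. Nested genes numbered 105, against 55 on the strand of the host and 65 without Gm and Rik names. Genes sharing a base numbered 134, against 62 on the same strand and 31 by exons. TATAAA was found in 103 promoters, against 30 at the core position on the sense strand. Medians of span ran from 1680 to 1913 bases and of coding length from 943.5 to 1029 bases over the alternatives. Clusters numbered 36 at 20 kb and 46 at 100 kb. Leaving out older names or synonyms of the families (613 and 608 genes), genes in Tspear (87 nested), nested genes touching a host exon (103 nested) and promoters with a 5′ UTR under 10 bases (85 with TATAAA) were chosen after seeing the data. The alternatives for protein searches and residue runs were not run. No paired analysis was possible because no column gives values of single libraries. Lengths are those of the annotated transcripts, so a UTR of 0 bases may be an unannotated one.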

Other observations

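In 4 of the 618 intronless genes the rows differed in their coding part. Cebpa had 5 coding parts inside the same span of 2636 bases, of 397, 360, 346, 243 and 147 codons, and Cebpb had 3, of 297, 276 and 146 codons. Jund had 2, of 342 and 294 codons. Ppp2r3d, the fourth, had a coding row and a row without a coding part. These genes were named after their rows were seen, and the coding parts are those annotated, without any measurement of which protein is made.

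Lists of 3 families grouped as spermatid proteins were added after the names were seen, and overlap in part with the retrogene pairs. They take in whole families by name, such as Adam10 and Actl6a, so a listed gene need not be a spermatid protein. Testis-specific serine kinases (Tssk), listed together with Haspin and Csnka2ip, gave 4 of 8 (Haspin, Tssk1, Tssk2 and Tssk6). Actin-like proteins gave 7 of 10, of which Actl7a, Actl7b, Actrt2 and Actbl2 are also in the pairs. ADAM proteins, membrane proteins with a metalloprotease domain, gave 6 of 34. The 17 intronless genes of these lists had a CpG ratio of at least 0.6 in 1 of 15 promoters. Some small families, also listed after their names were seen, were intronless throughout, with 4 of 4 TSPY-like genes, 3 of 3 Ttc30 genes of intraflagellar transport and 4 of 4 Eid genes. The 3 Ttc30 genes had 1995 coding bases each. Other added lists gave 11 of 14 further DNA-binding factors, 6 of 9 receptors for peptides, bile acids and relaxins, 2 of 2 vomeronasal receptors under older names, 5 of 8 TD and POZ domain proteins, 7 of 20 ribonucleases of the A family and 4 of 39 DnaJ co-chaperones. Prr23a, Teddm and Sowah genes were intronless in 3 of 3, 4 of 4 and 3 of 3 cases, and Ccdc genes in 10 of 134.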
